A study of Mus musculus with 10 samples.

Results

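Nuclear-encoded genes of the mitochondrial respiratory chain were followed in mouse cells sorted from pancreatic tumours and from pancreas. The genes were taken from the count table by symbol alone, as all rows named Nduf (letters a, b, c, s or v), Sdh, Sdhaf, Uqcr, Cox followed by a digit, or Atp5, and the prefix gave the complex. The rule found 112 of the 55401 rows, with 49 for complex I, 8 for complex II, 8 for complex III, 29 for complex IV and 18 for complex V. Of these, 21 encode assembly factors, which help to build a complex and are not part of it, and they are described separately. The members lie on 19 chromosomes.

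The respiratory chain sits in the inner mitochondrial membrane. Complexes I and II take electrons from NADH and succinate and pass them to ubiquinone, complex III passes them to cytochrome c, and complex IV passes them to oxygen. Complexes I, III and IV pump protons as they do so, and complex V, the ATP synthase, lets the protons back through a rotating ring to make ATP. Apart from complex II, each complex combines nuclear-encoded subunits with subunits encoded in mitochondrial DNA. Many of the nuclear genes have binding sites in their promoters for NRF1 and for the ETS factor GABPA, 2 regulators of mitochondrial biogenesis.

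All 10 libraries came from KPC mice on the C57BL/6 background, in which tamoxifen starts pancreatic ductal adenocarcinoma. The 5 tumour libraries hold cells the submitters call tumour-associated Schwann cells, from tumours of mice given tamoxifen intraperitoneally at 6 weeks (20 mg/kg on 5 days). The 5 pancreas libraries hold cells labelled Schwann cells, the glia of peripheral nerves, from the pancreas of KPC mice that had no tamoxifen. Both were taken at 4 months, and cells were sorted by staining for the receptor NGFR. Tumour was digested with a tumour dissociation kit and pancreas with hyaluronidase and collagenase, so digestion and group cannot be told apart. The alleles behind the name KPC, the driver of the recombinase and whether a library pools several mice are not stated in the labels. The sample codes, COCUL for tumour and CTL for pancreas, are left unexplained there. COCUL might mean a co-culture, but no protocol describes one. The series is about long noncoding RNAs of these cells and a metabolic environment that resists immunity.

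The libraries held 58242278 to 84194616 estimated counts in tumour and 60622336 to 89816499 in pancreas. Pancreas replicates 3 and 4 stood apart from the other pancreas libraries on the second principal component (6.96% of the variance, against 64.7% for the first, which separated the groups). Of 10 Schwann cell markers, 2 were at 0 in all tumour libraries and 2 in all pancreas libraries, and their summed level was 9.65 to 12.1 CPM (counts scaled to library size) in tumour and 4.10 to 10.2 CPM in pancreas. Sox10, which defines the lineage, was at 0 in all 5 tumour libraries and at no more than 0.116 CPM in pancreas, and Ngfr, the sorted receptor, was at no more than 0.231 CPM in tumour and 0.283 CPM in pancreas. The defining markers therefore did not bear out the label, and the samples are called tumour and pancreas libraries here. Summed fibroblast markers were 94.9 to 116 CPM in tumour and 519 to 619 CPM in pancreas, and summed pericyte and smooth muscle markers were 400.1 to 430.4 CPM in tumour and 645.6 to 822.0 CPM in pancreas. Of the 8 tested fibroblast markers 7 fell and 1 rose, and of the 8 pericyte and smooth muscle markers 5 fell and 3 rose. Neither sum therefore stands for each of its markers. The part of these differences in the results was not tested. In such bulk samples fewer cells of a type and less RNA per cell cannot be told apart. The labels do not say that libraries of a group came from separate animals, so the spread that p-values are based on is that between these samples and may be technical.

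Promoters are shown for 7 members. They are the gene that fell furthest in each complex, assembly factors left out, among those with a promoter and at least 5 CPM, and 2 c-subunit genes. Of these 2 of the 3 genes for the c subunit of the ATP synthase ring, Atp5g3 fell and Atp5g2 did not pass the test. The promoters are RefSeq sequences of build GRCm38.p6, from 250 bases before to 50 bases after the start of the gene. The positions are Ndufa8 (chr2:36049289-36049588, minus strand), Sdhd (chr9:50603800-50604099, minus strand), Uqcrh (chr4:116075021-116075320, minus strand), Cox7b (chrX:106015450-106015749, plus strand), Atp5k (chr5:108434350-108434649, minus strand), Atp5g3 (chr2:73911277-73911576, minus strand) and Atp5g2 (chr15:102670998-102671297, minus strand). Each is written 5′ to 3′ on the strand of its gene, and capitals mark 3 cores: CCGGAAG (ETS factors such as GABPA), GCATGCG (NRF1) and ATGGCGG (YY1), on either strand, so that the ETS core can also read CTTCCGG. Forward and reverse matches of the NRF1 core overlap by all but 1 base where it lies in CGCATGCG.
Ndufa8: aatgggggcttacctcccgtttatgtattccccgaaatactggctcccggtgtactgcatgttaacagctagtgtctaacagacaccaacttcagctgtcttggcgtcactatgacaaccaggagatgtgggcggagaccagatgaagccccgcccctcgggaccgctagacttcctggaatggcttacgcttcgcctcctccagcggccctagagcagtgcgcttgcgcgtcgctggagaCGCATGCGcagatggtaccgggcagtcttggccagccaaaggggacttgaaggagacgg
Sdhd: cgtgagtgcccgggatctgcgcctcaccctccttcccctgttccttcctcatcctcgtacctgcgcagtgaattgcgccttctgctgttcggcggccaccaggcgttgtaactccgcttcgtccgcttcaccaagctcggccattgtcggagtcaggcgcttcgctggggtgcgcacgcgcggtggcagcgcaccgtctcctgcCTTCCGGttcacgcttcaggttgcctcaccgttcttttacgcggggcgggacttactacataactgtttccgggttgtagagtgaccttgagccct
Uqcrh: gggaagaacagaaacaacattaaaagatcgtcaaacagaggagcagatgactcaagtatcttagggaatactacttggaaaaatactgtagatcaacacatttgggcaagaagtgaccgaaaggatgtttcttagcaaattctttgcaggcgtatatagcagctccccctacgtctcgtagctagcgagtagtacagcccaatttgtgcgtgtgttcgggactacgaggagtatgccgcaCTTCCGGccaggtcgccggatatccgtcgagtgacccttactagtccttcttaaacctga
Cox7b: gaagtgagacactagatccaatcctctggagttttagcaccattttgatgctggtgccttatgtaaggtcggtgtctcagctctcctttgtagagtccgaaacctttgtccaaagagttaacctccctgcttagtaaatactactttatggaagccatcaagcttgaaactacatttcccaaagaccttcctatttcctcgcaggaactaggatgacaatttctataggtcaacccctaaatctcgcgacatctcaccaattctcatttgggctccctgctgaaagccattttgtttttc
Atp5k: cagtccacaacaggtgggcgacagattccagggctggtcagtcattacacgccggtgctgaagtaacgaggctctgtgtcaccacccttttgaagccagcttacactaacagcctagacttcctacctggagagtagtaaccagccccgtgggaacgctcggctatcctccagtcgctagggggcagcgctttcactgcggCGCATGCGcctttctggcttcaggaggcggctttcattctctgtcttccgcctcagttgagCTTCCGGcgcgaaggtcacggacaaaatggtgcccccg
Atp5g3: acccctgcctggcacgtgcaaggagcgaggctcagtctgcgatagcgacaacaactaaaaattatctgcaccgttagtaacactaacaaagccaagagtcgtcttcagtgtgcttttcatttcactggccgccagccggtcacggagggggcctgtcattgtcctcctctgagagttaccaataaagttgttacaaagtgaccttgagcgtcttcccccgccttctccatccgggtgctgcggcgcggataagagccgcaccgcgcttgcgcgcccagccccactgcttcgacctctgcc
Atp5g2: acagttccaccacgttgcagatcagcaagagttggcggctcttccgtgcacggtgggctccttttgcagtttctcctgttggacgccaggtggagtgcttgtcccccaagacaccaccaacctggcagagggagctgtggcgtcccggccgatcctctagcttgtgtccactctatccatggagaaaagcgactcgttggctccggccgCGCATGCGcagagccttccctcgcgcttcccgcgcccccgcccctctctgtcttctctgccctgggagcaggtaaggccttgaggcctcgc

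The promoters of Atp5k and Ndufa8 hold the NRF1 core, that of Atp5k also the ETS core, and those of Sdhd and Uqcrh the ETS core. The promoter of Atp5g2 holds the NRF1 core, while in those of Cox7b and Atp5g3 these letters are not in the window shown. Promoters were found for 87 of the 111 member symbols. The ETS core was present in 29.9% of these 87 promoters, against 9.12% of all 27025 promoters in the table and 11.9% of the 17492 of protein-coding genes. The NRF1 core was present in 13.8% of member promoters, 3.64% of all promoters and 4.49% of protein-coding ones, and the YY1 core in 16.1%, 4.19% and 5.41%. Median GC content was 59.0% for member promoters, 52.7% for all promoters and 56.3% for those of protein-coding genes. Members that fell in tumour held the ETS core in 30.9% of 55 promoters, members that rose in 42.9% of 7, and members that did not pass in 26.1% of 23. By prefix, assembly factors included, the ETS core was in 6 of 40 complex I promoters, 5 of 7 complex II promoters, 2 of 5 complex III promoters, 8 of 20 complex IV promoters and 5 of 15 complex V promoters. These are matches of letters only, and say nothing of binding.

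Tumour libraries held less of most respiratory chain transcripts than pancreas libraries, unevenly by complex. A gene was called changed at a Benjamini-Hochberg adjusted p below 0.05 in edgeR's quasi-likelihood test over all 17548 tested genes. Of 106 members tested, 60 fell, 14 rose and 32 did not pass, where 33.4% of all tested genes fell and 32.4% rose. The median log2 fold change (tumour over pancreas) was -0.28 over the tested members and 0.00 over all tested genes. Values did not overlap between groups for 54 members below and 10 above pancreas, where 27.4% of all genes lay wholly below and 27.2% wholly above. The comparison called 65.8% of all genes changed in one direction or the other, so a single call sets a gene apart from few others. Among the 13527 protein-coding genes alone, 37.2% fell and 34.3% rose. Scaled to library size without TMM factors, 54 members fell and 22 rose, where 28.4% of all genes fell and 37.8% rose.

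By complex, 15 of 17 tested complex V genes fell and 0 rose, with a median log2 fold change of -0.48. Complex IV had 13 that fell and 2 that rose of 16 tested, with a median of -0.61. In complex I, 22 of 40 fell and 2 rose, with a median of -0.28, and in complex III 4 of 8 fell and 2 rose, with a median of -0.17. These complex I values, and the sum below, include Ndufa4, which fell, and its paralogue Ndufa4l2, which rose. They also include the pseudogenes Ndufb4c and Ndufs6b, which did not pass. Complex II, the entry point shared with the tricarboxylic acid cycle, had 1 that fell, 1 that rose and 2 that did not pass of 4. Its median of -0.08 turned positive under library size scaling and under length offsets, and that of complex III under the offset over protein-coding genes. The 21 assembly factors had 7 that rose (33.3%) and 5 that fell (23.8%), with a median of 0.11. Of all tested genes 32.4% rose and 33.4% fell.

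**Figure D1:**
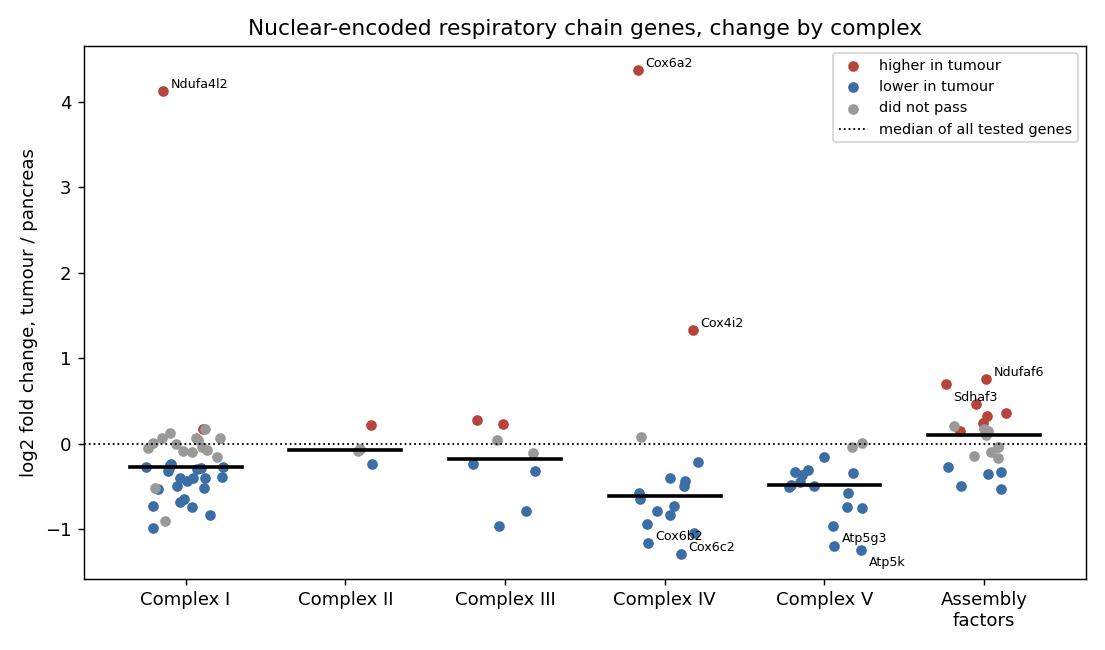
Log2 fold change (tumour over pancreas) of each tested member, by complex and for assembly factors. Points are genes coloured by the edgeR call, thick lines are medians (-0.28, -0.08, -0.17, -0.61, -0.48 and 0.11 from left to right), and the dotted line is the median of all tested genes; Cox6a2 and Ndufa4l2 lie far above the rest.

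The change of protein-coding genes went with exonic length, at a Spearman rho of 0.23, but hardly among members, at 0.09. Exonic length is the union of all annotated exons of a gene, which can exceed the length of a transcript. Members are short, with a median exonic length of 1756 bases against 4421 bases for other tested protein-coding genes, and the median log2 fold change of other protein-coding genes was lower the shorter their class, apart from near-equal values at 1500 to 2000 and 2000 to 3000 bases. Of those of 500 to 1000 bases, 48.6% fell and 16.2% rose. Other protein-coding genes of 500 to 1000 bases had a median log2 fold change of -0.39, those of 1500 to 2000 bases -0.20, those of 3000 to 5000 bases -0.10 and those over 10000 bases 0.39. Members of 500 to 1000 bases had -0.23 (23 genes), those of 1500 to 2000 bases -0.27 (16 genes) and those of 3000 to 5000 bases -0.29 (21 genes). In an alternative chosen after seeing the data, a smooth length trend over protein-coding genes was taken out of each library. Of the 103 members tested there, 41 fell and 32 rose, and their median was -0.04. Processed pseudogenes are not protein-coding and drop out of it, also from the counts by complex below. In that setting 36.5% of protein-coding genes fell and 34.6% rose.

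The complexes differed under it. Complex V had 14 lower calls, 1 higher call and a median of -0.25 after the length trend was taken out, and complex IV 8 lower and 4 higher calls and -0.32. Complex I had 12 lower and 10 higher calls with a median of -0.04. Complex II turned to a median of 0.09 with 0 lower calls, and complex III to 0.13 with 3 lower and 4 higher calls, so the direction of their medians hangs on this choice. Assembly factors had 12 higher and 4 lower calls with a median of 0.26. The trend was fitted on union exonic lengths, so how much was taken out of a gene, and of a complex, depends on the annotation. Whether the length trend comes from the cells or from the libraries was not tested.

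**Figure D2:**
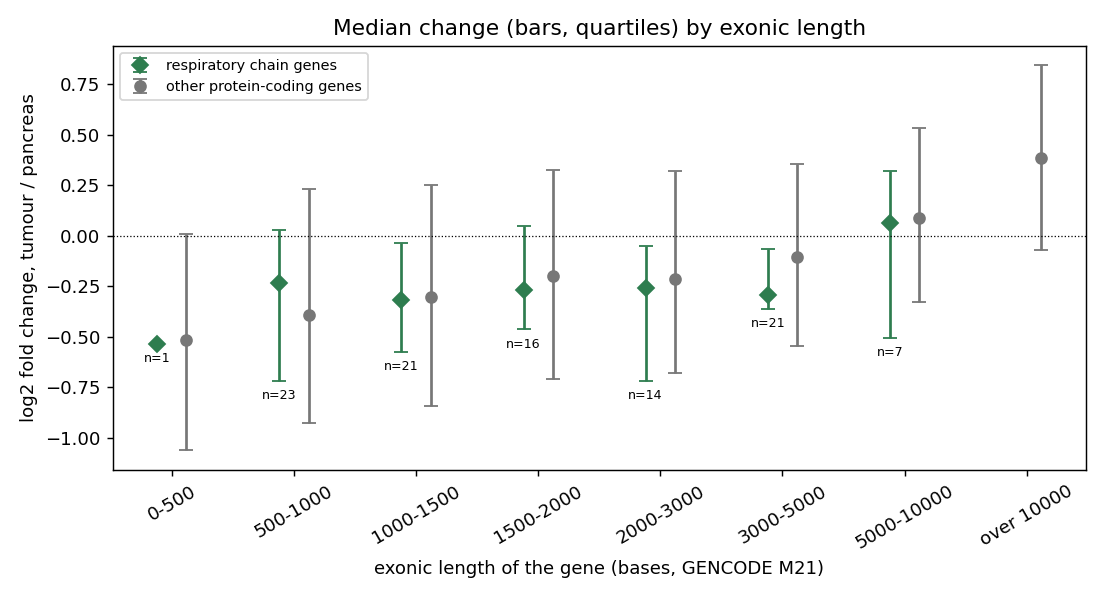
Median log2 fold change (tumour over pancreas) by exonic length for members (diamonds, with their number) and other protein-coding genes (circles); bars are quartiles. Other genes climb from -0.51 in the shortest class to 0.39 in the longest, and members of 3000 to 5000 bases lie lower, at -0.29 against -0.10. Exonic length is the union of all annotated exons of a gene, so a class can hold genes with shorter transcripts.

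Summed over its genes, complex V reached 2533 ± 43.2 CPM in tumour and 3256 ± 180 CPM in pancreas (SD, n = 5 each, as in all such pairs). Complex IV summed to 1128 ± 17.8 CPM in tumour and 1609 ± 114 CPM in pancreas, and complex I to 1857 ± 40.7 CPM in tumour and 2259 ± 122 CPM in pancreas. Complex III summed to 508 ± 13.8 CPM in tumour and 565 ± 21.9 CPM in pancreas. For these 4 complexes every tumour library lay below every pancreas library. Complex II summed to 442 ± 10.8 CPM in tumour and 427 ± 16.9 CPM in pancreas, and the assembly factors to 402 ± 5.78 CPM in tumour and 397 ± 16.9 CPM in pancreas, differences within the spread of the pancreas libraries. All members together held 0.712% of the counts in tumour and 0.821% in pancreas.

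**Figure D3:**
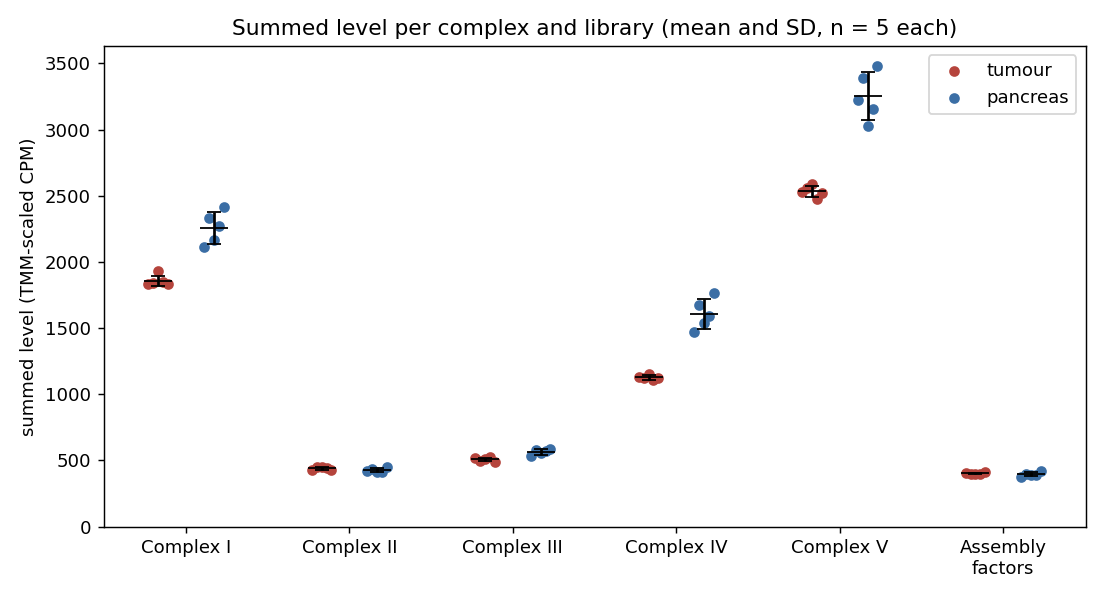
Summed CPM of the genes of each complex and of the assembly factors in each library (points), with mean and SD, n = 5 per group, tumour left of pancreas. Complexes I, III, IV and V are separated without overlap, with complex V at 2533 CPM in tumour and 3256 CPM in pancreas, while complex II and the assembly factors are mixed.

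Complex I, which oxidises NADH, has 7 nuclear core subunits here that carry the flavin, the iron-sulphur clusters or the quinone site, and 29 accessory subunits around them. Among the core subunits 4 fell, 1 rose and 2 did not pass, and among the accessory subunits 17 fell, 0 rose and 12 did not pass. Ndufa8, an accessory subunit on the side of the intermembrane space, had 55.9, 52.2, 53.0, 50.9 and 46.8 CPM in tumour, against 97.9, 105, 94.1, 108 and 107 CPM in pancreas. All tumour values lay below all pancreas values, and the log2 fold change was -0.98 ± 0.06 (SE; edgeR adjusted p = 6.09e-09).

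Ndufb10, an accessory subunit of the membrane arm, had 47.3, 42.0, 48.9, 44.4 and 45.3 CPM in tumour, against 73.9, 86.1, 70.1, 78.8 and 97.1 CPM in pancreas. The groups did not overlap, with a log2 fold change of -0.83 ± 0.08 (edgeR adjusted p = 7.87e-07). Ndufb2, also in the membrane arm, had 19.1 to 23.0 CPM in tumour and 30.9 to 43.1 CPM in pancreas, a log2 fold change of -0.74 ± 0.09. Its exons overlap those of Braf and 2 other genes by 447 bases, and reads there cannot be assigned without strand.

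Ndufs1, the largest core subunit, went the other way. It had 98.3, 97.6, 103, 97.1 and 95.6 CPM in tumour, against 87.5, 93.4, 79.4, 82.8 and 91.7 CPM in pancreas. Tumour values lay above pancreas values without overlap, by a log2 fold change of 0.18 ± 0.05 (edgeR adjusted p = 0.00693), and the sign turned (-0.0013, far from passing) with the length trend of protein-coding genes taken out. Without pancreas replicates 3 and 4 it was 0.11 and no longer passed. Its exons overlap Eef1b2 and a noncoding gene by 498 bases, and these hold 86.6% of the counts of the 3 genes together.

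Ndufs3, a core subunit singled out after its values were seen, had 3.64, 24.1, 22.7, 19.9 and 20.4 CPM in tumour, against 34.7, 39.9, 30.4, 34.4 and 29.8 CPM in pancreas. Tumour replicate 1 was far below the other 4, and all tumour values lay below pancreas, yet the log2 fold change of -0.90 ± 0.40 did not pass (edgeR adjusted p = 0.0695). With limma-voom on all 10 libraries it passed as lower (-1.20, adjusted p = 0.0144). Without tumour replicate 1 it was -0.64 in edgeR, with an adjusted p of 9.94e-05. Its processed pseudogene Gm12251, a near-identical copy, had 2.39 CPM in tumour replicate 1 and 1.68 to 3.55 CPM in the other tumour libraries. The adjoining gene Kbtbd4, on the other strand, had 4.19 CPM in that library and 4.03 to 8.07 CPM in the others.

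Complex II consists of 4 nuclear subunits, and its summed level did not separate the groups. Sdha, the flavoprotein that binds succinate, had 225, 247, 248, 247 and 238 CPM in tumour, against 207, 208, 205, 203 and 211 CPM in pancreas. Every tumour value was above every pancreas value, with a log2 fold change of 0.22 ± 0.04 (edgeR adjusted p = 0.000205). Sdhd, a membrane anchor, had 69.1, 72.5, 73.6, 68.7 and 68.3 CPM in tumour, against 84.5, 82.0, 79.5, 77.1 and 92.3 CPM in pancreas. It fell by 0.24 ± 0.05 on the log2 scale (edgeR adjusted p = 0.00117), a direction that turned to 0.0400 with the length trend of protein-coding genes taken out. Sdhb, the iron-sulphur subunit, had 47.2 to 47.9 CPM in tumour and 46.5 to 55.3 CPM in pancreas (log2 fold change -0.09, adjusted p = 0.146 in edgeR). Sdhc, the other anchor, had 77.8 to 89.4 CPM in tumour and 81.9 to 94.6 CPM in pancreas (-0.06, adjusted p = 0.334 in edgeR). The groups overlapped for both.

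Complex III was split. Uqcrh, the hinge subunit next to cytochrome c1, had 30.2, 25.05, 26.8, 28.6 and 24.6 CPM in tumour, against 46.5, 55.8, 51.4, 49.1 and 59.7 CPM in pancreas. It fell by 0.96 ± 0.08 on the log2 scale, with no overlap (edgeR adjusted p = 1.62e-07). Uqcr11, a small subunit, had 33.0 to 35.4 CPM in tumour and 52.2 to 65.7 CPM in pancreas, a log2 fold change of -0.78 ± 0.06, and 5.51% of the counts of this gene and its copies lie in 2 pseudogenes. Uqcrc1, a core protein of the matrix side, had 87.9, 87.5, 87.4, 108 and 84.6 CPM in tumour, against 104, 112, 126, 107 and 119 CPM in pancreas. Tumour replicate 4 reached into the pancreas range, and the log2 fold change was -0.32 ± 0.07 (edgeR adjusted p = 0.00158).

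The partner of Uqcrc1 in the matrix moved in the opposite direction. Uqcrc2 had 116, 107, 111, 116 and 105 CPM in tumour, against 95.1, 92.3, 99.9, 102 and 81.8 CPM in pancreas, a log2 fold change of 0.23 ± 0.06 (edgeR adjusted p = 0.00318). Uqcr10, a small subunit near the Rieske protein, had 41.5 to 44.9 CPM in tumour and 32.2 to 37.4 CPM in pancreas, a log2 fold change of 0.27 ± 0.05. Neither gene overlapped between groups. Uqcrfs1, the Rieske iron-sulphur protein itself, had 53.1 to 62.3 CPM in tumour and 58.3 to 69.0 CPM in pancreas and did not pass (-0.11, adjusted p = 0.111 in edgeR).

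Complex IV, cytochrome c oxidase, takes its catalytic core from mitochondrial DNA, and its nuclear subunits surround that core. Of the 10 accessory subunits 9 fell, 0 rose and 1 did not pass. Cox7b had 39.2, 42.6, 46.2, 45.5 and 42.3 CPM in tumour, against 77.1, 87.3, 76.1, 80.6 and 91.9 CPM in pancreas. No tumour value came near the pancreas range, and the log2 fold change was -0.94 ± 0.06 (edgeR adjusted p = 3.00e-08). Cox4i1, the ubiquitous form of the subunit that binds ATP, had 229, 230, 234, 225 and 227 CPM in tumour, against 328, 373, 338, 356 and 393 CPM in pancreas, a log2 fold change of -0.64 ± 0.05. Cox6b1 had 51.0 to 57.1 CPM in tumour and 89.5 to 99.6 CPM in pancreas (-0.79 ± 0.05), and Cox7a2 had 23.6 to 28.3 CPM in tumour and 43.1 to 52.0 CPM in pancreas (-0.83 ± 0.07). Cox7a2l, a relative of Cox7a2 that has been linked to supercomplexes of complexes III and IV, had 144 to 154 CPM in tumour and 218 to 232 CPM in pancreas (-0.58 ± 0.04). Groups did not overlap for these genes.

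Smaller differences were found for Cox8a and Cox6a1. Cox8a, the ubiquitous form of a small membrane subunit, had 144 to 157 CPM in tumour and 172 to 221 CPM in pancreas, a log2 fold change of -0.40 ± 0.06, which was -0.01 and no longer passed with the length trend of protein-coding genes taken out. Cox6a1 had 166, 169, 183, 167 and 166 CPM in tumour, against 172, 201, 194, 205 and 216 CPM in pancreas. Tumour replicate 3 overlapped pancreas, and the log2 fold change of -0.21 ± 0.06 (edgeR adjusted p = 0.00503) turned to 0.16 with that trend taken out.

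Several complex IV subunits have a second gene used in particular tissues. Of the 4 such genes tested, Cox6a2 and Cox4i2 rose, and Cox6b2 and Cox7a1 fell, as did their ubiquitous forms Cox6b1 and Cox7a2. Cox6a2, the heart and skeletal muscle form of Cox6a1, had 2.69, 2.90, 4.09, 3.002 and 2.42 CPM in tumour, against 0.395, 0.152, 0.0687, 0.147 and 0 CPM in pancreas. All tumour values were above all pancreas values at a low level, and the log2 fold change was 4.37 ± 0.56 (edgeR adjusted p = 1.72e-05). Per kilobase it made up 1.79 ± 0.29% of the Cox6a pair in tumour and 0.0851 ± 0.091% in pancreas. Other muscle genes did not follow: the 12 striated muscle markers summed to 0.194 to 0.791 CPM in tumour and 1.71 to 3.34 CPM in pancreas, with 7 at 0 in all tumour libraries and 4 in all pancreas libraries, Ckm and Myod1 being at 0 in tumour. The 8 brown adipocyte markers, another tissue that uses this isoform, summed to 14.3 to 18.4 CPM in tumour and 2.81 to 4.89 CPM in pancreas, with 5 at 0 in all tumour libraries and 1 in all pancreas libraries. Ucp1, which defines brown fat, was at 0 in all 10 libraries. The part of these markers in the rise of Cox6a2 was not tested. Its exons overlap those of Itgad by 70 bases, and Itgad holds 4.82% of the counts of both.

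Ndufa4l2 is a paralogue of Ndufa4, known as a target of hypoxia-inducible factor. Both carry a complex I prefix, although Ndufa4 is now regarded as a subunit of complex IV. Ndufa4l2 had 4.38, 4.00, 3.93, 3.99 and 3.11 CPM in tumour, against 0.343, 0.248, 0.241, 0.295 and 0 CPM in pancreas. The groups were far apart, with a log2 fold change of 4.12 ± 0.48 (edgeR adjusted p = 6.70e-06). Ndufa4 itself had 59.7 to 70.9 CPM in tumour and 75.5 to 97.2 CPM in pancreas and fell by 0.44 ± 0.07 on the log2 scale. Per kilobase, Ndufa4l2 was 7.02 ± 0.65% of the pair in tumour and 0.337 ± 0.21% in pancreas. Its exons overlap those of Shmt2 by 32 bases on the other strand; Shmt2 had 207 to 230 CPM in tumour and 200 to 248 CPM in pancreas, a log2 fold change of -0.03.

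Cox4i2, the form of Cox4i1 used in lung and under low oxygen, had 0.970, 0.246, 0.597, 0.475 and 0.708 CPM in tumour, against 0.155, 0.152, 0.309, 0.236 and 0.334 CPM in pancreas. Tumour replicate 2 lay within the pancreas range, and the log2 fold change was 1.32 ± 0.43 (edgeR adjusted p = 0.0142). It was 1.08 and no longer passed without tumour replicate 1. The share of Cox4i2 in its pair was 0.512 ± 0.23% in tumour and 0.130 ± 0.044% in pancreas.

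Cox6b2, the testis form of Cox6b1, had 3.05, 1.54, 2.05, 2.72 and 2.04 CPM in tumour, against 2.18, 2.89, 9.498, 8.41 and 2.58 CPM in pancreas. Pancreas replicates 3 and 4 were high and the other 3 lay within the tumour range. The log2 fold change of -1.17 ± 0.42 (edgeR adjusted p = 0.0292) was -0.17 without those 2 libraries, with an adjusted p of 0.548 in the same test. It also missed the threshold with limma-voom, with no low-count filter, under both length offsets and in 5 of the 10 fits that left out a library. Cox7a1, the muscle form of Cox7a2, had 0.377 to 0.667 CPM in tumour and 0.963 to 1.40 CPM in pancreas, without overlap (-1.04 ± 0.24, adjusted p = 0.00185 in edgeR), and was -0.64 and no longer passed with the length trend of protein-coding genes taken out. Cox8c was at 0 in all libraries and Cox8b at 0 in all but pancreas replicates 3 and 4, where it had under 0.05 CPM.

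**Figure D4:**
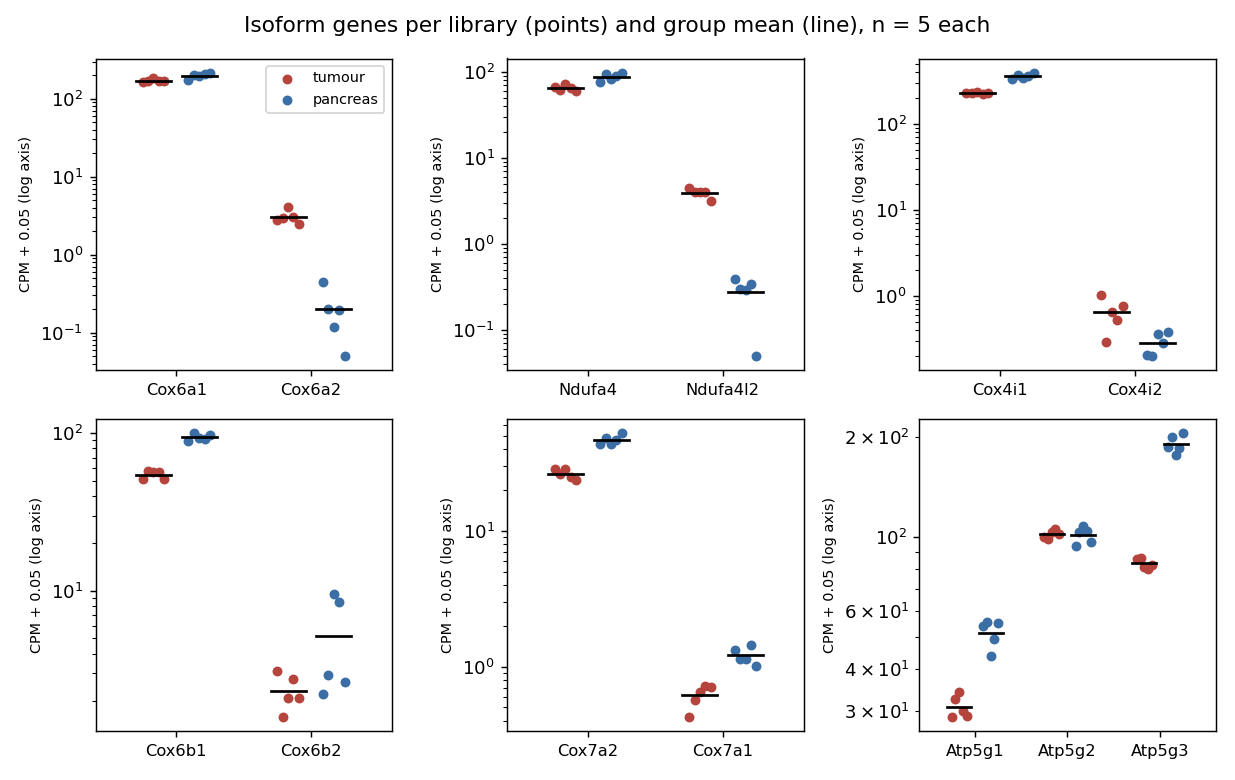
CPM + 0.05 on a log axis for isoform genes in each library (points, tumour left of pancreas) with group means, n = 5 each. Cox6a2 and Ndufa4l2 are at 2.42 to 4.38 CPM in tumour and at most 0.395 CPM in pancreas, while Cox6a1 (higher, at 0.16 on the log2 scale, with the length trend of protein-coding genes taken out) and Ndufa4 are slightly lower in tumour; Atp5g3 is lower in tumour where Atp5g2 is level.

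Complex V, the ATP synthase, had a larger share of tested genes that fell (88.2%) than any other complex (81.25% in complex IV). Of the 5 subunits of its catalytic F1 head 4 fell and 1 did not pass, and of the 12 tested subunits of its membrane part and stalk 11 fell and 1 did not pass. Atp5b, the catalytic beta subunit, had 1011, 1020, 1041, 979 and 1006 CPM in tumour, against 1287, 1311, 1149, 1205 and 1328 CPM in pancreas. The groups did not overlap, with a log2 fold change of -0.31 ± 0.05 (edgeR adjusted p = 5.77e-05). Atp5a1, the alpha subunit, had 340 to 375 CPM in tumour and 347 to 393 CPM in pancreas and did not pass (-0.04, adjusted p = 0.449 in edgeR). Both genes are described after their values were seen.

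The ring of the ATP synthase is built of a single protein, the c subunit, which 3 genes encode with different import sequences. Atp5g3 had 85.6, 86.7, 81.5, 79.9 and 82.4 CPM in tumour, against 187, 201, 177, 185 and 205 CPM in pancreas. The groups were wide apart, and the log2 fold change of -1.20 ± 0.05 had the lowest p of all members (edgeR adjusted p = 3.32e-10). Atp5g1 had 28.7, 32.4, 34.1, 29.9 and 28.8 CPM in tumour, against 54.0, 55.6, 43.8, 49.3 and 55.0 CPM in pancreas, and fell by 0.74 ± 0.08 on the log2 scale. Atp5g2 had 99.9, 98.9, 103, 106 and 102 CPM in tumour, against 93.7, 104, 108, 104 and 96.9 CPM in pancreas, with overlap (0.01 ± 0.05, adjusted p = 0.873 in edgeR). With the length trend of protein-coding genes taken out, Atp5g2 passed as higher, at 0.24.

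The balance between these genes therefore differed. Per kilobase, Atp5g2 held 56.9, 56.0, 58.2, 59.6 and 58.3% of c-subunit transcripts in the tumour libraries, against 36.7, 37.4, 41.8, 39.6 and 35.5% in pancreas. Atp5g3 held 36.2 ± 1.36% in tumour and 55.2 ± 2.02% in pancreas, and Atp5g1 held 5.95 ± 0.43% in tumour and 6.62 ± 0.56% in pancreas. Shares of Atp5g2 and Atp5g3 did not overlap between groups, while those of Atp5g1 did. Of the counts of Atp5g1 and its copy Gm10039 together, 21.5% were given to the copy, which fell as well (log2 fold change -0.86), so the share of Atp5g1 is uncertain. Lengths here are the union of all annotated exons: 4912 bases for Atp5g1, 1675 for Atp5g2 and 2181 for Atp5g3. A transcript can be shorter than this union, so the size of all these shares depends on the annotation.

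The small subunit e, encoded by Atp5k and placed where ATP synthase dimers meet, had 6.92, 5.37, 4.84, 6.29 and 7.58 CPM in tumour, against 11.1, 16.5, 13.8, 14.3 and 17.6 CPM in pancreas. It had the lowest log2 fold change of complex V, -1.24 ± 0.15, with no overlap (edgeR adjusted p = 5.77e-06). Atp5md, which encodes a small protein of the same membrane part, had 39.2 to 44.9 CPM in tumour and 75.9 to 88.5 CPM in pancreas (-0.96 ± 0.06). The other subunits of the membrane part and stalk that fell had log2 fold changes of -0.15 (Atp5o) to -0.76 (Atp5j2).

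**Figure D5:**
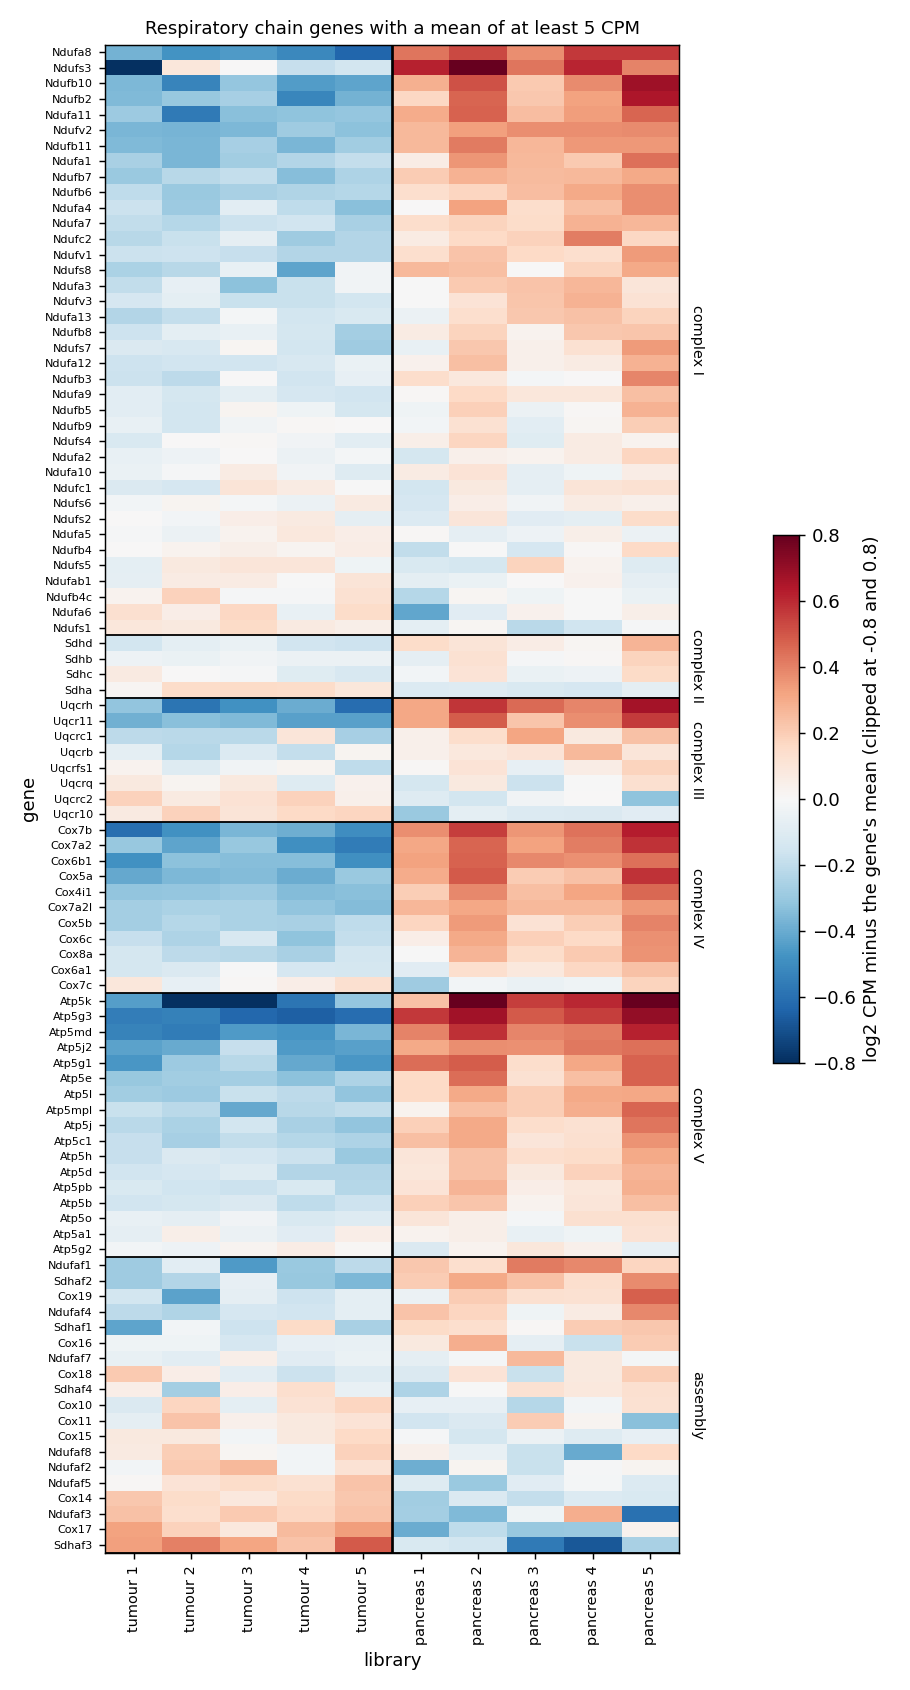
Log2 CPM of each tested member with a mean of at least 5 CPM, minus the mean of the gene over the 10 libraries (colour, clipped at -0.8 and 0.8), with tumour libraries on the left and pancreas libraries on the right. Rows are grouped by complex and sorted by fold change; complexes IV and V are blue in tumour almost throughout, Ndufs3 is darkest in tumour replicate 1, and assembly factors are mixed.

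Assembly factors moved in both directions, for every complex that had any. The share that rose (33.3%) was near that of all tested genes (32.4%), and the share that fell was lower (23.8% against 33.4%). Sdhaf3, which protects the iron-sulphur subunit of complex II while it is built, had 8.40, 8.84, 8.33, 7.83 and 9.41 CPM in tumour, against 6.13, 6.05, 4.51, 4.17 and 5.59 CPM in pancreas. It rose without overlap, by a log2 fold change of 0.69 ± 0.13 (edgeR adjusted p = 0.000271). Cox17, the copper chaperone that supplies complex IV, had 59.8, 54.4, 50.7, 57.2 and 60.5 CPM in tumour, against 36.4, 41.6, 38.8, 39.0 and 48.9 CPM in pancreas. It rose likewise, by 0.47 ± 0.08 (edgeR adjusted p = 0.000141).

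Ndufaf3, which acts early in complex I assembly, had 13.1 to 14.1 CPM in tumour and 7.89 to 14.6 CPM in pancreas. Pancreas replicate 4 was the highest of all libraries, and the log2 fold change of 0.36 ± 0.14 passed narrowly (edgeR adjusted p = 0.0344). It no longer passed in 7 of the 10 fits that left out a library, where it was 0.26 to 0.37, and its exons overlap Impdh2 by 48 bases. Ndufaf6, under 5 CPM on average and named after its values were seen, had the highest log2 fold change of the assembly factors, 0.75 ± 0.19.

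Among assembly factors that fell, Ndufaf1, a chaperone of the membrane arm of complex I, had 11.1, 12.7, 9.84, 10.995 and 11.6 CPM in tumour, against 15.6, 14.8, 17.99, 17.6 and 15.2 CPM in pancreas. The groups did not overlap (log2 fold change -0.53 ± 0.09, adjusted p = 0.000154 in edgeR). Sdhaf2, which helps to attach the flavin to Sdha, had 38.4 to 47.0 CPM in tumour and 54.1 to 64.0 CPM in pancreas (-0.50 ± 0.06), and its exons overlap Cpsf7 by 94 bases. Cox19, a protein of the copper route to complex IV, had 18.8 to 24.1 CPM in tumour and 24.5 to 35.3 CPM in pancreas (-0.36 ± 0.10).

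The 13 chain subunits encoded in mitochondrial DNA, which match no symbol of the rule, were a separate list. All 13 fell, with a median log2 fold change of -1.17, and their summed level was 11858 ± 799 CPM in tumour and 25273 ± 2708 CPM in pancreas. The lowest was mt-Nd3, a complex I subunit, with 24.7 to 30.4 CPM in tumour and 94.8 to 134 CPM in pancreas (-2.04 ± 0.11, adjusted p = 4.00e-09 in edgeR). With these genes left out of library sizes, the nuclear members again had 60 lower and 14 higher calls and a median of -0.28.

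The shares of all tested genes that fell (33.4%) and rose (32.4%) are the background of the following counts. Chain factors whose symbols fall outside the rule, such as cytochrome c and further assembly factors, had 12 that rose and 17 that fell of 43 tested, with a median of -0.05 that turned to 0.13 with the length trend of protein-coding genes taken out and to 0.05 under library size scaling. The main counts are 27.9% that rose and 39.5% that fell, near the background. Dmac2l, an ATP synthase factor, had 15.1 to 17.2 CPM in tumour and 4.57 to 8.28 CPM in pancreas (log2 fold change 1.26 ± 0.14). Sco2, a copper chaperone for complex IV, had 2.16 to 4.55 CPM in tumour and 7.74 to 11.5 CPM in pancreas (-1.56 ± 0.18). Neither overlapped between groups. Of 14 tested carriers and uncouplers of the inner membrane, 8 fell (57.1%) and 1 rose (7.14%), with a median of -0.37. Slc25a3, which imports the phosphate that ATP synthase needs, had 360 to 380 CPM in tumour and 747 to 854 CPM in pancreas (-1.08 ± 0.05), while the citrate carrier Slc25a1 rose (0.58 ± 0.07).

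Of 18 tricarboxylic acid cycle and pyruvate dehydrogenase genes 9 fell (50%) and 5 rose (27.8%), with a median of -0.22, which was -0.12 under library size scaling. Idh3a, of the NAD-linked isocitrate dehydrogenase, had 65.6 to 73.4 CPM in tumour and 114 to 132 CPM in pancreas (log2 fold change -0.87 ± 0.05). Idh2, the NADP-linked enzyme, had 144 to 157 CPM in tumour and 82.0 to 108 CPM in pancreas (0.70 ± 0.07). Idh3a and Idh2 were named as the lowest and highest called genes of this list, so their opposite signs follow from that choice. Coenzyme Q synthesis had 6 that rose (46.2%) and 4 that fell (30.8%) of 13, with a median of 0.12, which was 0.30 with the length trend of protein-coding genes taken out. Coq3, a methyltransferase of that route, had 14.6 to 17.4 CPM in tumour and 7.37 to 11.2 CPM in pancreas (0.94 ± 0.12), and Pdss1, which builds the tail of the molecule, had 3.63 to 4.11 CPM in tumour and 5.34 to 7.66 CPM in pancreas (-0.86 ± 0.12). Mitochondrial import and cristae genes had 13 that fell (52.0%) and 7 that rose (28.0%) of 25, with a median of -0.23. That median was -0.05 with the length trend of protein-coding genes taken out, -0.12 under the offset over all genes and -0.13 under library size scaling. Phb, a prohibitin of the inner membrane, fell (-1.07 ± 0.05), and Chchd6, of the complex that shapes cristae junctions, rose (1.05 ± 0.08).

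Regulators of mitochondrial biogenesis had 8 that fell and 5 that rose of 19 tested, with a median of -0.07. These are 42.1% and 26.3%, against 33.4% and 32.4% of all tested genes. Under library size scaling 8 rose and 5 fell, and the median turned to 0.03. Ppargc1a, the coactivator PGC-1 alpha, was at 0 in all libraries but pancreas replicate 2, which had 0.0689 CPM, and was not tested. Its relative Ppargc1b had 4.44, 5.43, 6.72, 5.36 and 6.16 CPM in tumour, against 2.30, 3.65, 2.65, 1.33 and 2.81 CPM in pancreas. It rose without overlap, by a log2 fold change of 1.14 ± 0.22 (edgeR adjusted p = 0.000477). Nrf1 had 29.7 to 35.2 CPM in tumour and 31.9 to 37.8 CPM in pancreas (-0.07, adjusted p = 0.333 in edgeR), but passed as lower, at -0.35, under both length offsets.

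Gabpa, whose factor binds the ETS core shown above, had 59.9 to 66.2 CPM in tumour and 51.3 to 58.2 CPM in pancreas (log2 fold change 0.24 ± 0.05). Its exons overlap those of the member Atp5j by 397 bases, and Atp5j fell. Esrra, an orphan nuclear receptor, had 76.0 to 86.0 CPM in tumour and 89.0 to 108 CPM in pancreas (-0.33 ± 0.06). Tfam, which packages and transcribes mitochondrial DNA, had 34.4 to 38.3 CPM in tumour and 38.2 to 42.0 CPM in pancreas (-0.17 ± 0.05), and no longer passed, at -0.07, under library size scaling. Tfb1m, a methyltransferase of mitochondrial ribosomal RNA, rose (0.69 ± 0.11), and Myc fell, with 59.2 to 68.2 CPM in tumour and 108 to 163 CPM in pancreas (-1.0996 ± 0.10).

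Members varied little within a group. The median coefficient of variation over the 106 tested members was 5.03% in tumour and 8.18% in pancreas, against 8.63% and 14.1% over all tested genes. These values were not matched for expression level, and 97 members had a mean of at least 5 CPM. In pancreas replicates 3 and 4 together, 15 members lay above and 20 below the other 3 pancreas libraries, 14.2% and 18.9% of those tested, against 20.9% and 19.6% of all genes. Across the 103 tested members that are protein-coding, the log2 fold change went with mean CPM at a Spearman rho of -0.20 and with exonic length at 0.09, both given as descriptions. The 6 members not tested for low counts were Ndufa11b, Cox8b, Cox8c, Cox7b2, Cox20b and a second row of Atp5o. The lowest log2 fold change of all members was that of Cox6c2 (-1.29 ± 0.28), a processed pseudogene near-identical to part of Cox6c, under 5 CPM and named after its values were seen. It is 1 of 5 members that are processed pseudogenes (with Ndufa11b, Ndufb4c, Ndufs6b and Cox20b) and counts among the 13 complex IV genes that fell. Near-identical copies were found for 25 members, and for 9 of them, Atp5g1, Atp5h, Atp5l, Cox5b, Ndufa12, Ndufab1, Ndufb4, Ndufs3 and Uqcr11, the copies held over 5% of the counts, so that the levels of these genes are uncertain.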

How the data were processed

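RNA was measured in 10 libraries, 5 of cells sorted from tumour and 5 of cells sorted from pancreas, with total RNA extracted in Trizol and 2 µg made into NEBNext Ultra libraries, which carry no strand, per the labels' protocols. The authors deposited a table of estimated counts per gene. The tools listed in the submitters' processing notes are HISAT, HISAT2 and HTSeq, with build mm10, and neither versions nor settings were found in the labels. Values were whole, so rounding changed nothing, and 0 columns belonged to no sample. Genes at 4 counts were 1.69 to 2.07 times as frequent as neighbouring values, so the number of fragments is unknown and no counting interval is given. With counts divided by 4 to allow for this, no pair of libraries within a group was closer than sampling noise (chi-square per degree of freedom from 3.01), and each counted as 1 replicate.

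Genes were kept by filterByExpr (minimum count 10, minimum total 15), scaled by TMM and tested with the robust quasi-likelihood F test of edgeR 4.0.16 in R 4.3.3, tumour against pancreas, with Benjamini-Hochberg adjustment over 17548 genes and a threshold of 0.05. The test was tried on simulated counts first. CPM values use TMM-scaled library sizes. The SE of a log2 fold change is its size divided by the root of F. Biotypes, exonic lengths (the union of all annotated exons of a gene) and mm10 coordinates came from GENCODE M21. Per-kilobase values use these lengths. Copies were found with blastn 2.17.0 (at least 95% identity over 150 bases and 50% of the copy) and exon overlaps with bedtools 2.31.1. Alternatives were DESeq2 1.42.0, limma-voom (limma 3.58.1), library size scaling, 2 other filters, counts divided by 4, mitochondrial genes left out, the replicate block, libraries left out and, chosen after seeing the data, exonic length offsets in edgeR over all genes or protein-coding genes only.

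Members, lists, tests and alternatives were chosen with earlier results of these data known. Named genes were, in each complex and among assembly factors, up to 3 called members highest and 3 lowest with at least 5 CPM, all isoform families and complex II subunits, 6 regulators, and the highest and lowest called gene with at least 5 CPM of each other list. Lists were the mitochondrially encoded genes, other chain factors, biogenesis regulators, tricarboxylic acid cycle, coenzyme Q synthesis, carriers, import and cristae, and 9 marker lists of cell types. Over lists of markers not given elsewhere, tumour and pancreas sums averaged 40.7 and 50.2 CPM for epithelium, 2.23 and 0.997 CPM for acinar cells, 202 and 368 CPM for endothelium and 16.3 and 9.54 CPM for macrophages. The labels do not say that equal replicate numbers share an animal or a day, so samples were not paired in the main test.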

Additional observations from a re-analysis of the deposited data

Results flagged for a closer look

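In 132 groups of 5 libraries, covering the named genes and the sums per complex, 10 had a highest or lowest library whose gap to its neighbour was over 0.71 of the group's range, the Dixon value for 5 samples. Chance alone flags about 1 group in 20.

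Ndufs3 had 3.64 CPM in tumour replicate 1 against 19.9 to 24.1 CPM in the other tumour libraries, and its fold change passed without that library. Uqcrc1 was high in tumour replicate 4, at 108 CPM against 84.6 to 87.9 CPM, and Cox6a1 in tumour replicate 3, at 183 CPM against 166 to 169 CPM. Cox19 was low in tumour replicate 2, at 18.8 CPM against 22.6 to 24.1 CPM, and Phb in tumour replicate 5, at 52.7 CPM against 56.9 to 57.5 CPM. The summed complex I genes were high in tumour replicate 3, at 1929 CPM against 1830 to 1849 CPM.

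In pancreas, Uqcr10 was low in replicate 1, at 32.2 CPM against 36.5 to 37.4 CPM, and Pdss1 in replicate 3, at 5.34 CPM against 7.14 to 7.66 CPM. Coq3 was high in pancreas replicate 4, at 11.2 CPM against 7.37 to 8.08 CPM, and Ppargc1a had 0.0689 CPM in pancreas replicate 2 against 0 CPM in the others.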

How the results depend on the processing

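Of the counts of higher and lower calls per list, 552 values under alternatives were within 1.5 times the reported count and 34 were not. Library size scaling gave all genes a median of 0.10 and members one of -0.18 (log2), with 22 members higher and 54 lower. It gave 6 higher in complex I, 9 lower chain factors, 8 higher and 5 lower regulators, and 3 higher carriers. The length offset over protein-coding genes gave 32 members higher, 10 higher and 12 lower in complex I, 0 lower in complex II, 4 higher in complex III, 4 higher and 8 lower in complex IV, 1 higher in complex V, 12 assembly factors higher, 20 higher and 11 lower chain factors, and 3 higher carriers. The offset over all genes gave 25 members higher, 8 higher in complex I, 0 lower in complex II, 1 higher in complex V and 11 lower chain factors. At least 1 CPM in 5 libraries, and counts divided by 4, each gave 1 higher in complex IV. Without pancreas replicates 3 and 4, complex I had 1 higher, carriers 2 and import and cristae genes 4. Under offsets Ndufs1 reversed to -0.0013 (protein-coding) and -0.0077 (all genes), and Sdhd to 0.0400 and Cox6a1 to 0.16 (protein-coding). The cause was not tested.

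With each library left out in turn, members had 12 to 14 higher and 58 to 62 lower calls. Complex IV had 1 to 2 higher (1 without tumour replicate 1), carriers 1 to 2 higher (2 without tumour replicate 5), chain factors 11 to 17 lower (11 without tumour replicate 4), and import and cristae genes 4 to 7 higher (4 without pancreas replicate 3, pancreas replicate 4 or tumour replicate 2).

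Same-numbered libraries did not deviate together (correlations of -0.0193 to 0.0394, 0 of 5 best with their own number). With the replicate block, 13 members were higher and 60 lower. Depth limits low members such as Cox4i2, which had 9 to 27 counts per pancreas library.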
